A study of Homo sapiens with 12 samples.

Results

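Oleic acid was compared with vehicle in HEK293 cells that received no iron salt, using 6 of the 12 libraries of the study. The 3 oleic acid libraries and the 3 vehicle libraries were taken by the treatment in their labels. The other 6 libraries came from cells given ferric ammonium citrate (FAC, an iron salt used there to induce ferroptosis), with or without oleic acid. HEK293 is an established human embryonic kidney cell line, and the labels name no genetic change in any group. Polyadenylated RNA was sequenced. Dose and exposure time were not given in the sources used here. Replicates are numbered without being called separate cultures, so the p-values reflect a spread among libraries that may be technical. That spread was estimated from all 12 libraries of the study.

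Oleic acid is a monounsaturated fatty acid. Cells take it up, activate it to its coenzyme A ester, store it in triglyceride droplets, build it into phospholipids or burn it in mitochondria after it passes the carnitine shuttle. Fatty acids also bind the PPAR nuclear receptors, which are known to raise transcription of fatty acid oxidation genes such as CPT1A, of PDK4 and of the droplet protein PLIN2. Ferroptosis is a form of cell death driven by peroxidation of polyunsaturated phospholipids, and monounsaturated fatty acids are known to counter it when they replace those lipids in membranes.

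No gene passed the test with oleic acid alone: 0 of 14209 genes had an adjusted p under 0.05, or 0.0%, and the smallest adjusted p was 1.00 (edgeR quasi-likelihood F test, Benjamini-Hochberg). At an unadjusted p under 0.05 there were 118 genes, or 0.83%, where 5% of the genes tested would be 710. DESeq2 and limma-voom also called 0 genes, with 113 and 133 at an unadjusted p under 0.05. LPCAT1, CPT1A, PDK4, SLC25A20 and EGR1 had fold changes of 1.27 to 1.78 over vehicle, and other genes had larger ones. The 95% interval of the fold change lay within 2-fold in either direction for 12082 genes (85.0%) and within 1.5-fold for 8588 (60.4%).

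The third oleic acid library stood apart, so results are given with and without it. In that library, genes in the shortest of 20 transcript length bins had a median of 0.51 on the log2 scale relative to the mean of the 6 libraries, and genes in the longest bin a median of -0.50. The other 5 libraries stayed between -0.15 and 0.16 in those bins. Across 14016 genes, Pearson's r between transcript length (log2) and the distance from the library's own group mean was -0.52 in the third oleic acid library and -0.23 to 0.36 in the other 5. The third library weighs on its group's mean, so the 0.363 and 0.355 of the first and second oleic acid libraries partly reflect it. The third oleic acid library held the highest or the lowest value of the 6 in 66.2% of genes, against 22.9% to 30.2% for each of the others. It was also the shallowest at 14098216 counts, and the other 5 ranged up to 18066108. In the group given oleic acid + FAC, the third library's deviations correlated with those of this library at 0.61 across genes, which are not independent replicates.

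**Figure D1:**
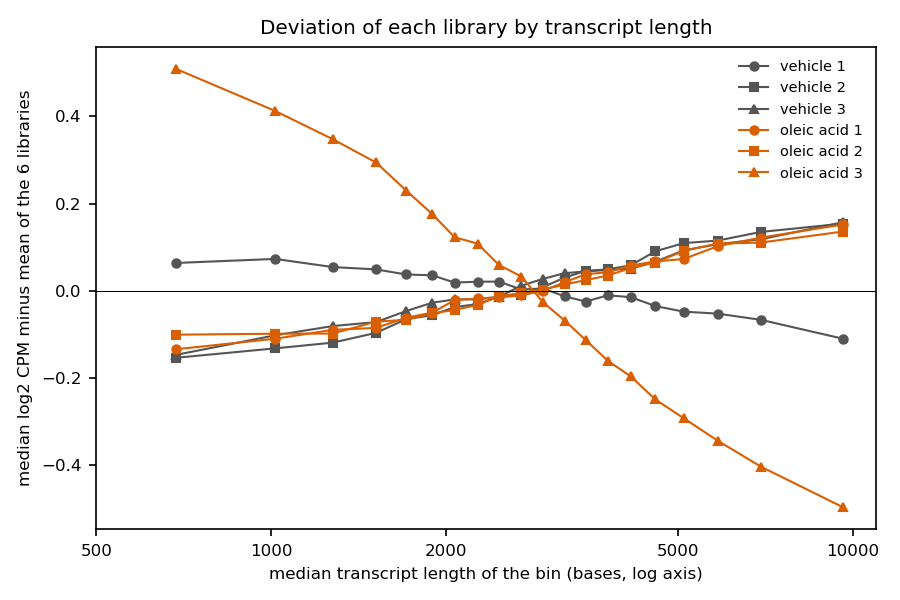
Median deviation of each of the 6 libraries from the mean of the 6 (log2 CPM, vertical axis) in 20 bins of transcript length (bases, log axis), with 701 genes in the first and last bins. The third oleic acid library (orange triangles) falls from 0.51 to -0.50, while the other 5 lines stay between -0.15 and 0.16 at both ends.

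Levels are CPM, in which each library is brought to the same total and adjusted by the trimmed mean of M values, and the count of 3 that a listed 0 allows came to 0.166 to 0.213 CPM in these libraries. The cells carried the markers of HEK293 in all 6 libraries: VIM, the most abundant of 10 such genes, was at 583 to 835 CPM in vehicle and 625 to 960 CPM in oleic acid. Summed markers of fibroblasts were at 16.3 to 21.8 CPM in vehicle and 10.9 to 21.3 CPM in oleic acid, led by COL1A1. Those of epithelium were at 13.6 to 23.5 and 16.1 to 22.7 CPM, those of blood at 3.07 to 6.05 and 4.89 to 5.83 CPM, and those of adipocytes, nearly all from the widely expressed ADIPOR2, at 145.7 to 156.8 and 132.6 to 151.8 CPM. Summed markers of hepatocytes were at 0.174 to 0.386 CPM in vehicle and 0.00 to 0.0537 CPM in oleic acid, and those of endothelium at 1.36 to 2.63 CPM over the 6 libraries. Mitochondrial mRNAs made up 4.32% to 6.32% of counts in vehicle and 5.05% to 7.09% in oleic acid.

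CPT1A encodes carnitine palmitoyltransferase 1A, the rate-limiting enzyme of fatty acid entry into mitochondria. Its level was 29.8, 42.0 and 34.2 CPM in vehicle replicates 1, 2 and 3, and 57.5, 51.8 and 40.5 CPM in oleic acid replicates 1, 2 and 3. The first and second oleic acid libraries lay above every vehicle library, and the third lay just under the second vehicle library. The fold change was 1.42 (95% interval 1.06 to 1.89), or 0.50 ± 0.19 (SE) on the log2 scale, with an unadjusted p of 0.0214 and an adjusted p of 1.00 in edgeR. Without the third oleic acid library it was 1.55-fold (1.16 to 2.07), with an unadjusted p of 0.00627 and an adjusted p of 1.00 in edgeR. CPT1A lies on chr11:68754620-68844410 (minus strand, GENCODE 29 on GRCh38), and its main transcript CPT1A-201 held 91.0% of its counts.

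PDK4 encodes pyruvate dehydrogenase kinase 4, which switches off pyruvate oxidation when fatty acids are the fuel. Vehicle replicates 1, 2 and 3 held 4.82, 4.40 and 5.89 CPM, and oleic acid replicates 1, 2 and 3 held 9.28, 7.68 and 5.60 CPM. Again the first and second oleic acid libraries were clear of vehicle and the third was not. The fold change was 1.50 (1.09 to 2.05) with all 3 oleic acid libraries and 1.68 (1.24 to 2.27) without the third. The unadjusted p-values were 0.0161 and 0.00264, and both adjusted p-values in edgeR were 1.00. PDK4 lies on chr7:95583499-95596491 (minus strand, GENCODE 29 on GRCh38), and PDK4-201 held 92.8% of its counts.

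LPCAT1 encodes lysophosphatidylcholine acyltransferase 1, which attaches acyl chains to lysophospholipids in the remodelling of membrane lipids. Its level was 312, 252 and 236 CPM in vehicle replicates 1, 2 and 3, and 457, 330 and 367 CPM in oleic acid replicates 1, 2 and 3. All 3 oleic acid libraries lay above all 3 vehicle libraries, which was true in this direction of 1.93% of all genes. The fold change was 1.44 (1.13 to 1.84), and 1.48 (1.12 to 1.93) without the third oleic acid library. The unadjusted p-values were 0.00692 and 0.00864, and both adjusted p-values in edgeR were 1.00. LPCAT1 lies on chr5:1456480-1523977 (minus strand, GENCODE 29 on GRCh38).

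The transcripts of LPCAT1 give a less even picture than the gene total. Only 25.9% of its gene-level counts fell on transcripts that GENCODE 29 lists under LPCAT1, and the rest was not analysed here. The coding transcript LPCAT1-201 was at 50.5, 56.1 and 41.2 CPM in vehicle and 85.4, 59.1 and 38.4 CPM in oleic acid, so the groups overlapped. LPCAT1-203, a processed transcript without a coding annotation, was at 7.86 to 13.6 CPM in vehicle and at 12.2, 15.8 and 90.6 CPM in oleic acid, where the third library was far above the first and the second. Over all 51464 transcripts tested, edgeR called 0 (0.0%), and 1088 (2.11%) had an unadjusted p under 0.05.

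**Figure D2:**
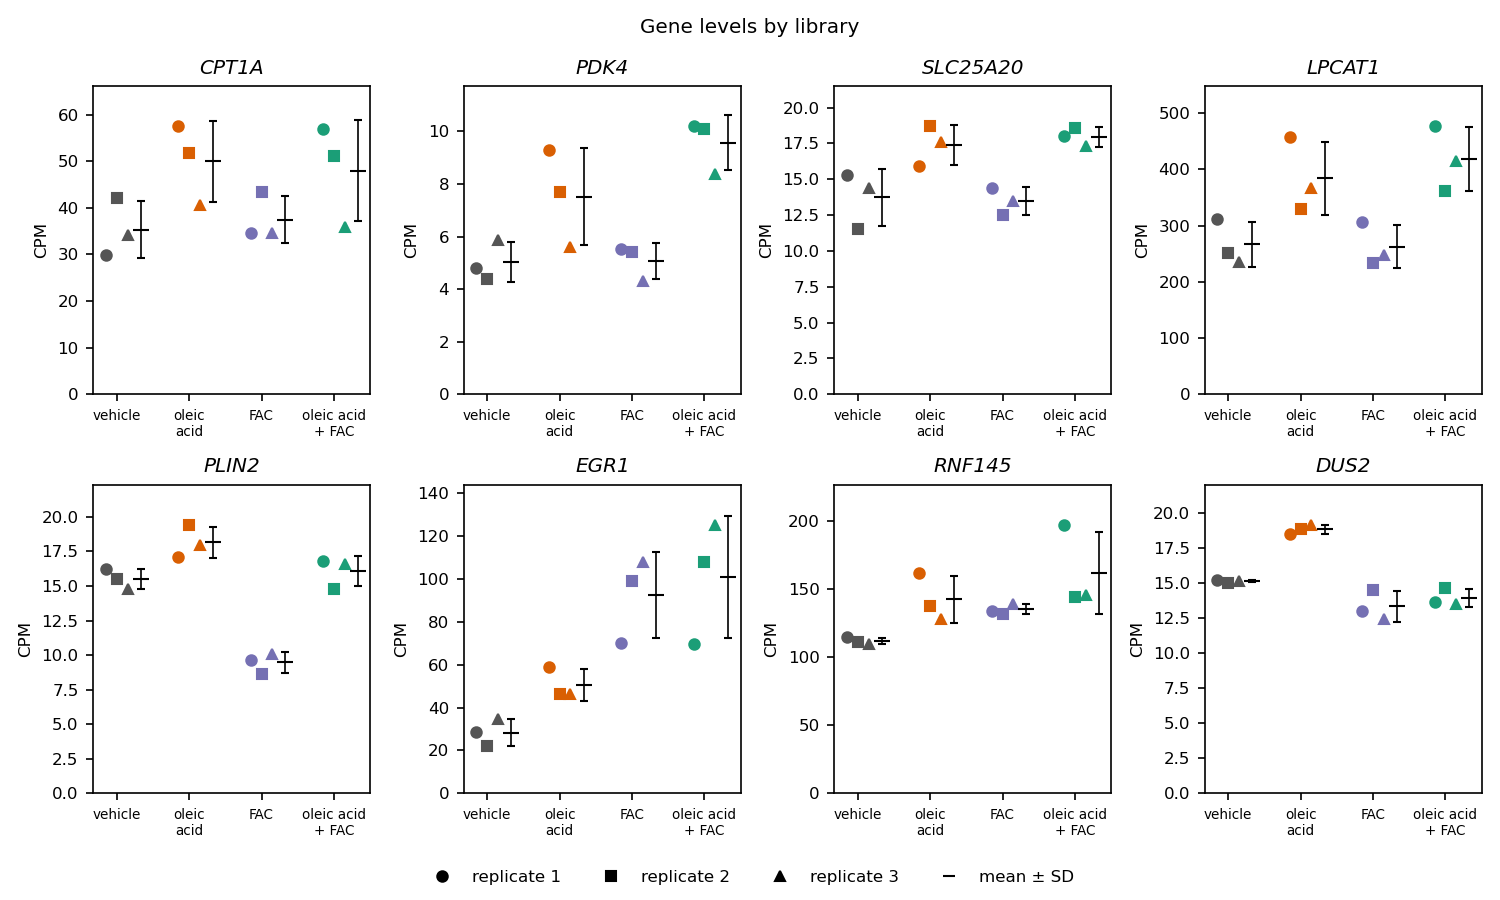
Level of 8 genes (CPM, vertical axis from 0) in each of the 12 libraries, with replicates 1, 2 and 3 as circles, squares and triangles, and the mean ± SD of each group in black (n = 3). LPCAT1, SLC25A20, PLIN2, EGR1, RNF145 and DUS2 separate oleic acid from vehicle in all 3 libraries, while the third oleic acid library of CPT1A and PDK4 lies within the vehicle range.

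Other steps of the carnitine shuttle and beta-oxidation were read next. SLC25A20, the carrier that moves acylcarnitines across the inner mitochondrial membrane, was at 15.3, 11.5 and 14.4 CPM in vehicle and 15.9, 18.7 and 17.6 CPM in oleic acid. Every oleic acid library was above every vehicle library, by as little as 15.9 against 15.3 CPM. The fold change was 1.27 (1.04 to 1.54), and 1.26 (1.01 to 1.58) without the third library. CPT2, which rebuilds acyl-CoA on the inner side, was at 33.4 to 47.4 CPM in vehicle and 31.0 to 45.6 CPM in oleic acid, a log2 fold change of -0.07 ± 0.19 (SE). ACADVL, the very long chain acyl-CoA dehydrogenase, was at 62.9 to 71.6 CPM in vehicle and 64.8 to 91.9 CPM in oleic acid. Its log2 fold change was 0.24 ± 0.14 (SE), and 0.14 without the third library.

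ECH1 encodes an isomerase that handles double bonds of unsaturated fatty acids during their oxidation. It was at 69.8, 70.4 and 57.4 CPM in vehicle and 70.3, 85.9 and 110 CPM in oleic acid, where the third library was the highest. Its fold change was 1.35 (1.04 to 1.74), and 1.19 (0.933 to 1.51) without that library. Of the 27 genes of mitochondrial fatty acid oxidation, all tested, 0 passed the adjusted test, 18 had a positive log2 fold change, and the median was 0.03 beside -0.001 over all genes. CPT1A, SLC25A20 and ECH1 were the 3 with an unadjusted p under 0.05, all higher in oleic acid, where 0.535% of all genes were. Peroxisomal oxidation, which shortens very long chains, had a median of -0.06 over 16 genes, with 4 positive.

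Genes known to respond to PPAR receptors held several of the genes described above. Of 27 listed, 18 were expressed enough to test, 0 passed, 13 had a positive log2 fold change, and their median was 0.12 with the third oleic acid library and 0.11 without it. The 5 with an unadjusted p under 0.05 were CPT1A, PDK4, SLC25A20, ECH1 and UCP3, all higher in oleic acid, where 0.535% of all genes were. Without the third oleic acid library, ECH1 and UCP3 had unadjusted p-values of 0.149 and 0.143. UCP3, a mitochondrial carrier named here because the count was small, was at 0.124 to 0.661 CPM in vehicle and 0.59 to 1.20 CPM in oleic acid, near the limit of detection. Without the third oleic acid library, CPT1A, PDK4, PLIN2 and SLC25A20 did not overlap with vehicle, 4 of 18 where 6.26% of all genes were that high. The list was chosen with results of these libraries known, so it is no independent evidence of direction.

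Several classical PPAR targets of liver and fat could not be read in this line. ANGPTL4, a secreted inhibitor of lipoprotein lipase, had 0 to 3 counts in each of the 6 libraries. The fatty acid transporter CD36 had 1 to 5 counts, and FABP4 had 0 in all 6. Of the receptors, PPARA was at 16.8 to 19.8 CPM in vehicle and 12.3 to 20.0 CPM in oleic acid, and PPARD at 22.9 to 23.5 CPM in vehicle and 23.5 to 27.6 CPM in oleic acid. Neither receptor passed the test.

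PLIN2 coats lipid droplets and is a common readout of fat loading. It was at 16.2, 15.5 and 14.8 CPM in vehicle and 17.1, 19.4 and 18.0 CPM in oleic acid, with no overlap. The fold change was 1.17 (0.982 to 1.40), and 1.18 (0.965 to 1.44) without the third library, with adjusted p-values of 1.00 in edgeR. HILPDA, a droplet protein that inhibits lipolysis, was at 15.6 to 15.9 CPM in vehicle and 14.9 to 18.5 CPM in oleic acid. The triglyceride synthases DGAT1 and DGAT2 had log2 fold changes of -0.03 ± 0.13 and 0.06 ± 0.26 (SE), and the lipase PNPLA2 had 0.01 ± 0.13. Over the 29 tested of 40 droplet and triglyceride genes, 0 passed the test and the median was -0.01, with 14 positive. MGLL, the monoglyceride lipase, was the other member besides PLIN2 without overlap, at 3.80 to 4.08 CPM in vehicle and 4.50 to 5.23 CPM in oleic acid. That made 2 of 29 higher without overlap, where 1.93% of all genes were.

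Genes of fatty acid synthesis and desaturation were read in the same way. SCD, the desaturase that makes oleic acid itself, was at 446, 444 and 403 CPM in vehicle and 419, 422 and 311 CPM in oleic acid, and only the third oleic acid library was low. Its log2 fold change was -0.17 ± 0.16 (SE), and -0.04 without that library. FASN, the fatty acid synthase, had -0.02 with it and 0.14 without it, and ACACA, which makes malonyl-CoA, had 0.10 and 0.31. SREBF1, the transcription factor of this pathway, was at 17.7, 18.2 and 13.1 CPM in vehicle and 14.7, 10.5 and 10.8 CPM in oleic acid, a log2 fold change of -0.44 ± 0.24 (SE). ELOVL6, which elongates palmitate, was higher without overlap, at 39.0 to 41.5 CPM in vehicle and 44.0 to 50.3 CPM in oleic acid. It was the 1 member of 24 that was higher in this way, where 1.93% of all genes were. Of 24 tested members of this list 0 passed, and the median was -0.05 with the third library and 0.01 without it.

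Activation and phospholipid remodelling held few separated genes besides LPCAT1. The acyl-CoA synthetases ACSL1, ACSL3 and ACSL4 had log2 fold changes of -0.10, -0.04 and -0.10, and each turned positive, at 0.02, 0.06 and 0.07, without the third oleic acid library. LPCAT3, which places polyunsaturated chains in phospholipids, was at 21.3 to 31.3 CPM in vehicle and 24.9 to 30.0 CPM in oleic acid, a log2 fold change of 0.01 ± 0.15 (SE). MBOAT1 and MBOAT2, acyltransferases that act on monounsaturated chains, had -0.30 ± 0.36 and -0.15 ± 0.13 (SE). Of 36 genes in the remodelling list, 0 passed the test. LPCAT1 was the 1 with an unadjusted p under 0.05, higher in oleic acid, where 0.535% of all genes were. The median of the list was 0.01, with 19 positive. PNPLA6, a lysophospholipase, was lower without overlap, at 20.6 to 22.5 CPM in vehicle and 17.1 to 18.7 CPM in oleic acid, with an unadjusted p of 0.0833. It was the 1 member of 36 that was lower in this way, where 1.67% of all genes were. The largest log2 fold change of the list, 0.98 ± 0.89 (SE), was that of the phospholipase PLA2G4B, at 0.22 to 0.752 CPM in vehicle and 0.175, 0.644 and 1.94 CPM in oleic acid, and it was -0.11 without the third library. SLC27A5, a bile acid and fatty acid CoA ligase of the uptake list, had 0.62 ± 0.49 (SE) with that library and 0.09 without it. PLA2G4B was chosen after its values were seen.

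Cholesterol genes and ferroptosis genes gave the same picture. HMGCS1, an early enzyme of cholesterol synthesis, was at 208 to 279 CPM in vehicle and 235 to 287 CPM in oleic acid. INSIG1, the sterol sensor that holds back SREBP, was at 59.7 to 92.6 and 64.6 to 97.6 CPM. The 27 tested cholesterol genes had a median of -0.02. GPX4, the peroxidase that removes lipid peroxides, was at 257, 224 and 209 CPM in vehicle and 215, 221 and 332 CPM in oleic acid, where the third library alone was high and the transcript is short (794 bases). TFRC, the transferrin receptor, was at 113, 134 and 119 CPM in vehicle and 130, 122 and 57.8 CPM in oleic acid, where the third library alone was low and the transcript is long (5027 bases). The log2 fold changes went from 0.15 to -0.08 for GPX4 and from -0.24 to 0.05 for TFRC when that library was left out. Over 28 tested ferroptosis genes, 0 passed the test and the median was -0.01 with the third library and 0.01 without it.

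**Figure D3:**
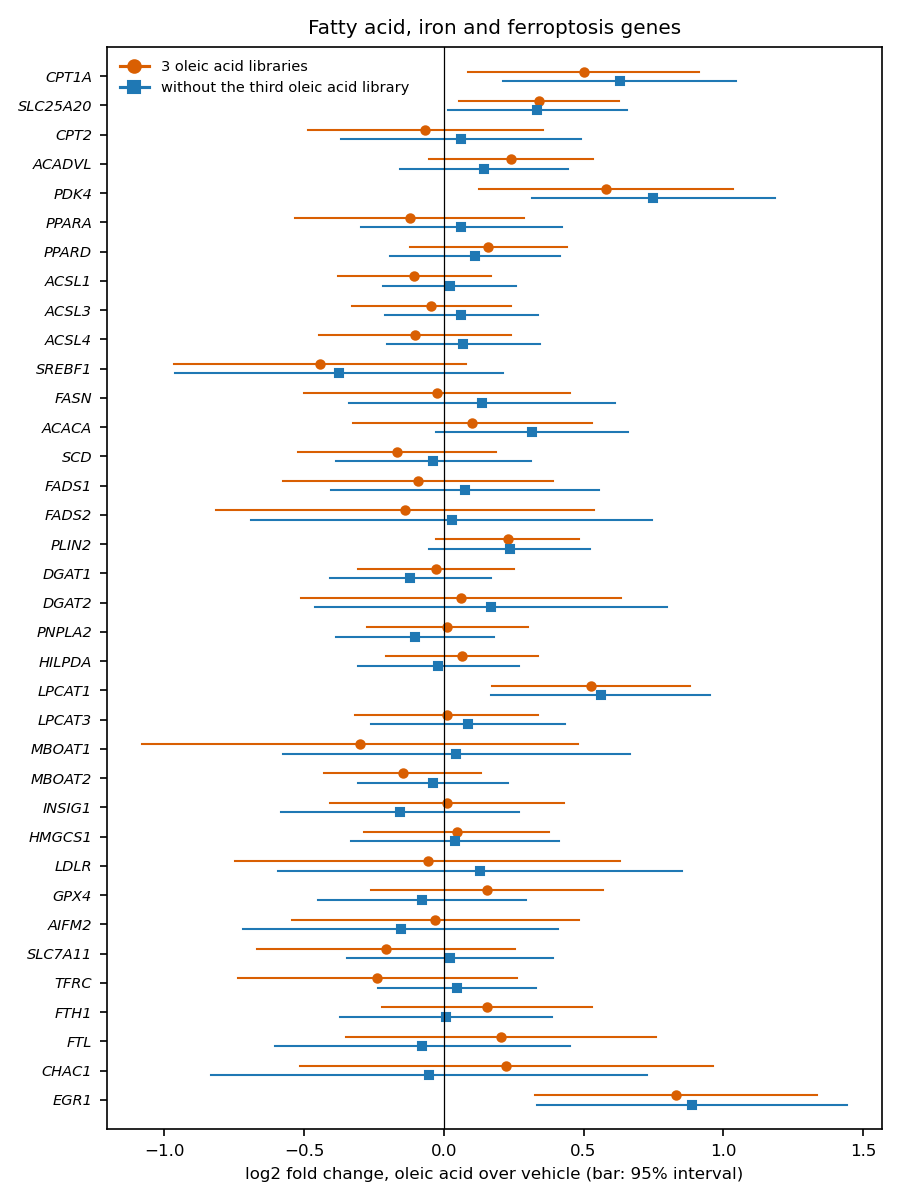
Log2 fold change of oleic acid over vehicle for 36 genes (horizontal axis), with 95% intervals from edgeR. The genes are of fatty acid metabolism, sterol control, iron and ferroptosis, except for the immediate-early gene EGR1. Orange circles show all 3 oleic acid libraries, and blue squares the fit without the third. The intervals of CPT1A, SLC25A20, PDK4, LPCAT1 and EGR1 lie above 0 in both fits, and those of the other genes shown include 0.

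A fixed set of 35 genes, all of lipids, iron or ferroptosis except EGR1, gives the size of the response in that set. Of these 33 could be tested, 31 had an interval that included 0, and 31 had an interval within 2-fold in either direction. SLC25A20 and EGR1 were the 2 with an interval above 0. The sign of the log2 fold change differed without the third oleic acid library in 18 of the 33, so the direction of a gene near 0 was not determined by these data.

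EGR1, a zinc finger factor induced within minutes of growth factor signals, had the largest fold change of that set. It was at 28.6, 21.9 and 34.6 CPM in vehicle and 58.9, 46.1 and 46.5 CPM in oleic acid, with no overlap. The fold change was 1.78 (1.26 to 2.52), and 1.85 (1.26 to 2.72) without the third library, with unadjusted p-values of 0.00347 and 0.00436 and adjusted p-values of 1.00 in edgeR. FOS, a partner of the AP-1 complex, was at 4.39, 2.84 and 5.12 CPM in vehicle and 5.90, 5.37 and 8.59 CPM in oleic acid. CCN1, a matricellular protein gene, was at 18.0 to 22.1 CPM in vehicle and 34.0, 20.1 and 33.4 CPM in oleic acid, where the second library stayed in the vehicle range. Of 34 immediate-early genes tested, 0 passed, 27 were positive, and the median was 0.13 with the third library and 0.08 without it. EGR1 and CCN1 were the 2 with an unadjusted p under 0.05, both higher, where 0.535% of all genes were. Without the third oleic acid library the unadjusted p of CCN1 was 0.117.

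The promoters of EGR1 and PDK4 are shown because the genes stand high in oleic acid and belong to different known systems, serum response for EGR1 and fasting for PDK4. Both run 5′ to 3′ over the 250 bases before the RefSeq start on GRCh38.p14, EGR1 at chr5:138465229-138465478 (plus strand) and PDK4 at chr7:95596517-95596766 (minus strand). Capitals mark the CArG boxes (CC, 6 A or T, GG), the known sites of serum response factor, in EGR1, and GC boxes (GGGCGG, either strand) in PDK4.
EGR1: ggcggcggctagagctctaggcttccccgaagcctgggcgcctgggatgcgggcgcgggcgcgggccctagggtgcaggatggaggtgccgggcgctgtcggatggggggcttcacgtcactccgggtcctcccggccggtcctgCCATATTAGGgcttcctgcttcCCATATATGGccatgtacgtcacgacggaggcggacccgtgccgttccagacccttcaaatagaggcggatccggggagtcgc
PDK4: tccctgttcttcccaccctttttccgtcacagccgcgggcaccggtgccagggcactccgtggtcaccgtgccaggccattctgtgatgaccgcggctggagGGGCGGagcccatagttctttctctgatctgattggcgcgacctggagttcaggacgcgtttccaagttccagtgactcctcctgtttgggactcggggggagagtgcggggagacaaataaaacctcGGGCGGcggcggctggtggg

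A CArG box occurred in 1.16% of 35116 promoter windows of this length, and EGR1 held 2, starting 105 and 83 bases before the start (-105 and -83). Of 21 genes searched, EGR1 and SCHIP1 were the 2 with a CArG box. GGGCGG occurred in 42.6% of all windows, and 13 of the 21 genes had it in any of their windows. Some genes, such as SCHIP1 and RNF145, had several windows, so counts of genes cannot be set against shares of windows. These 21 were LPCAT1, CPT1A, PDK4 and the genes of smallest p in each direction that had a RefSeq window, of 22 in all. The element known to bind PPAR with RXR, AGGTCA repeated in the same direction after 1 free base, was in 0 of the 21 on either strand and in 0.017% of all windows. With AGGNCA as the repeated unit these were 0 and 0.268%. The repeat is rare in all windows, and sites outside the windows were not searched. These counts of 0 therefore cannot show whether PPAR acts on these genes. A single AGGTCA, which the repeat contains, was in 3 of the 21, SCHIP1, PIGA and EXPH5, and in 12.1% of all windows.

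The 10 genes of smallest unadjusted p that were higher without overlap were LPCAT1, EGR1, FMC1, SLC25A20, RBM24, SCHIP1, DUS2, NEXN, RNF145 and SHISA3. They were chosen on these values, which are therefore a description. DUS2, a dihydrouridine synthase of tRNA, had close replicates, at 15.1 ± 0.0747 CPM in vehicle (SD, n = 3) and 18.5, 18.8 and 19.1 CPM in oleic acid, a fold of 1.24 (1.05 to 1.46). RNF145, an ubiquitin ligase of the endoplasmic reticulum membrane known from sterol control, was at 115, 111 and 110 CPM in vehicle and 162, 138 and 128 CPM in oleic acid, a fold of 1.27 (1.04 to 1.55). SCHIP1 had 2.78, 3.30 and 3.58 CPM in vehicle and 5.78, 4.08 and 6.20 CPM in oleic acid. FMC1, an assembly factor of the mitochondrial ATP synthase, had 8.22, 6.83 and 6.72 CPM in vehicle and 11.3, 9.12 and 13.4 CPM in oleic acid. SCHIP1 and FMC1 each share exons with a read-through gene, so the split of their counts is uncertain. RBM24, NEXN and SHISA3 lay between 2.48 and 8.58 CPM in all 6 libraries.

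Another 10 genes were taken as lower by the same rule. Among all genes 1.67% were lower without overlap, and 0.296% were lower at an unadjusted p under 0.05. The 10 were SORD2P, AMMECR1, ZNRF2, OSTM1, KRIT1, CRY1, DCUN1D4, PIGA, EXPH5 and LHX8, with log2 fold changes from -0.73 to -0.23. Leaving out the third oleic acid library could not bring overlap, because the 10 were chosen for having none with it. Without that library 8 of the 10 no longer had an unadjusted p under 0.05, the exceptions being SORD2P and AMMECR1. All 10 of the higher genes kept an unadjusted p under 0.05 without it. CRY1, a repressor of the circadian clock, was at 30.0, 26.2 and 32.7 CPM in vehicle and 26.0, 23.8 and 20.6 CPM in oleic acid. PIGA, the first enzyme of the glycolipid anchor of membrane proteins, was at 26.7, 25.8 and 28.1 CPM in vehicle and 23.9, 23.2 and 21.4 CPM in oleic acid. AMMECR1 was at 25.8, 30.6 and 31.1 CPM in vehicle and 21.0, 25.2 and 20.2 CPM in oleic acid. SORD2P is a pseudogene close in sequence to SORD, and its counts, 5.68 to 8.68 CPM in vehicle and 3.44 to 4.99 CPM in oleic acid, may include reads of that gene.

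Oleic acid given together with FAC shares no library with this comparison, so these genes could be read there in libraries that did not choose them. Of the 10 higher genes, 9 had a positive log2 fold change in oleic acid + FAC against FAC, and 6 were higher there without overlap, where 4.61% of all genes were: LPCAT1, SLC25A20, FMC1, SCHIP1, RNF145 and SHISA3. Without the third library of both oleic acid groups, 8 of the 10 were positive. Of the 10 lower genes, 7 were negative there and 2, PIGA and EXPH5, were lower without overlap, where 5.92% of all genes were. LHX8 was higher there without overlap, at 2.56 to 2.84 CPM against 1.91 to 2.00 CPM. EdgeR called 0 genes in that comparison too, with 576 (4.05%) at an unadjusted p under 0.05, and DESeq2 called 1, PLIN2. With the replicate number as a block, 1631 genes there had an unadjusted p under 0.05 and 0 were called.

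**Figure D4:**
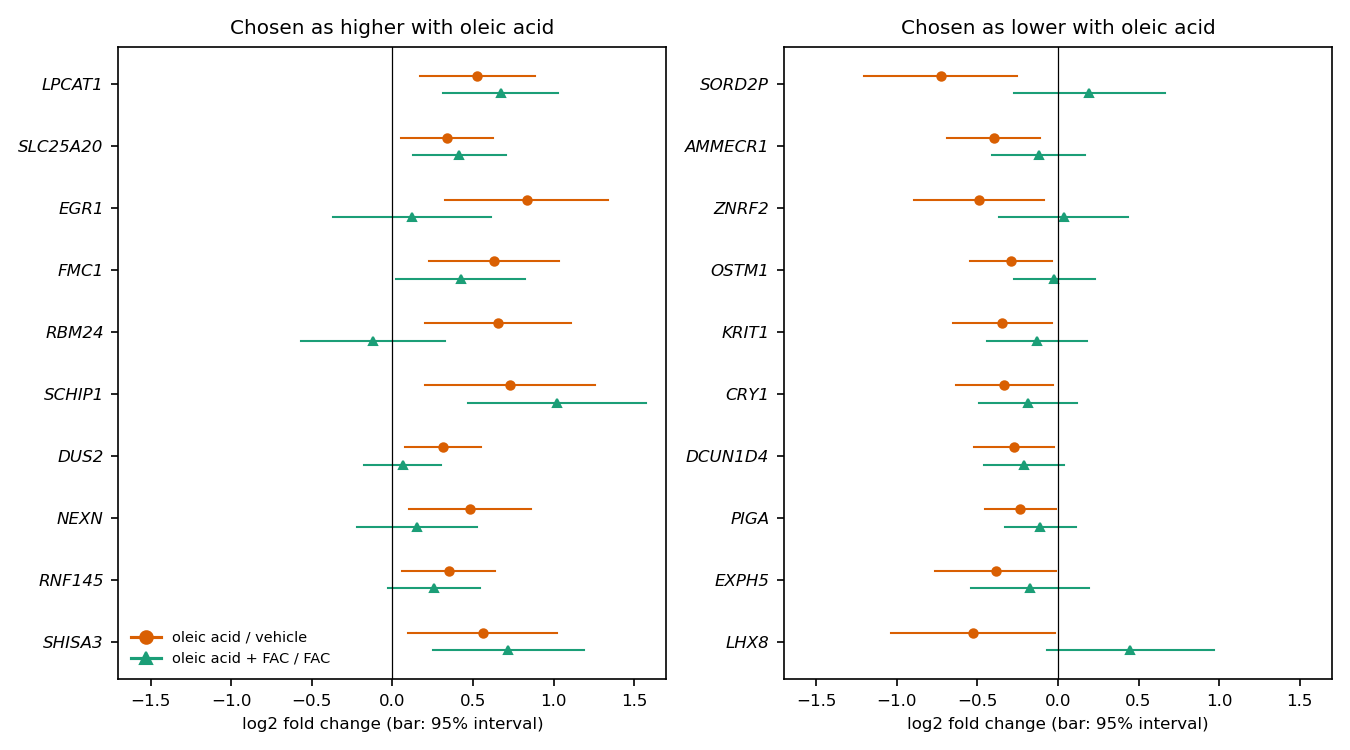
Log2 fold change with 95% interval (horizontal axis) of the 10 genes chosen as higher (left) and the 10 chosen as lower (right) in oleic acid against vehicle (orange circles), and of the same genes in oleic acid + FAC against FAC (green triangles). On the left 9 of 10 green points lie above 0, on the right 7 of 10 lie below it.

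LPCAT1, PDK4 and CPT1A were also read in the cells with FAC. LPCAT1 was at 306, 234 and 247 CPM in FAC and 477, 362 and 416 CPM in oleic acid + FAC, a fold of 1.59 (1.24 to 2.04). PDK4 was at 5.53, 5.42 and 4.30 CPM in FAC and 10.2, 10.1 and 8.38 CPM in oleic acid + FAC, a fold of 1.88 (1.38 to 2.58). CPT1A was at 34.5, 43.3 and 34.6 CPM in FAC and 56.9, 51.1 and 35.9 CPM in oleic acid + FAC, where the third library was again the lowest, a fold of 1.28 (0.962 to 1.71). All 3 genes were thus higher in the first and second libraries of both oleic acid groups than in any library of their controls. The difference between the effects with and without FAC had unadjusted p-values of 0.544, 0.281 (PDK4) and 0.603 (CPT1A) in edgeR.

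PLIN2 and EGR1 had unlike folds with and without FAC. Their levels without oleic acid differed too. PLIN2 averaged 15.5 CPM in vehicle and 9.47 CPM in FAC, and EGR1 averaged 28.4 CPM in vehicle and 92.5 CPM in FAC. PLIN2 was at 9.62, 8.63 and 10.1 CPM in FAC and 16.8, 14.8 and 16.6 CPM in oleic acid + FAC, a fold of 1.70 (1.41 to 2.03) beside 1.17 without the iron salt. EGR1 was at 70.1, 99.1 and 108 CPM in FAC and 69.5, 108 and 125 CPM in oleic acid + FAC, a fold of 1.09 (0.776 to 1.53) beside 1.78 without it. The difference between the 2 log2 fold changes (with FAC minus without) was 0.53 ± 0.17 (SE) for PLIN2 and -0.71 ± 0.32 for EGR1. Its unadjusted p was 0.0076 for PLIN2 and 0.0483 for EGR1, and both adjusted p-values in edgeR were 1.00. For SORD2P, LHX8 and RBM24 the unadjusted p of this difference in edgeR was 0.0107, 0.0125 and 0.0205. Over all genes, 0 (0.0%) passed the test of this difference and 116 (0.816%) had an unadjusted p under 0.05.

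Genes without overlap between oleic acid and vehicle were also followed as a class, at a mean log2 CPM of at least 1. Of 193 such higher genes, 70.5% were positive in oleic acid + FAC against FAC, beside 50.5% of all 12408 genes at that level. Of 180 lower genes, 60.0% were negative there, beside 49.5%. The higher genes had a median transcript length of 2238 bases, shorter than the 2912 bases of all genes. The same genes read without the third library of both oleic acid groups gave 60.1% beside 47.6% and 66.7% beside 52.4%. When genes were also chosen without the third oleic acid library, by the looser 2 against 3 libraries, the shares were 47.8% beside 47.6% for 712 higher genes and 52.8% beside 52.4% for 697 lower genes. Without these 2 libraries LPCAT1, PDK4, CPT1A and SLC25A20 stood at 1.59-fold, 1.99-fold, 1.43-fold and 1.35-fold with FAC, and EGR1 and RBM24 had log2 fold changes of -0.07 and -0.13.

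The lists with the largest medians among the 25 with at least 8 members tested moved with the third oleic acid library. The 78 cytosolic ribosomal protein genes had a median log2 fold change of 0.22, all 78 positive and 0 past the test, and a median of -0.005 with 35 positive once that library was left out. Their median against the vehicle mean was -0.07, 0.05 and 0.59 in oleic acid replicates 1, 2 and 3. The 75 nuclear genes of oxidative phosphorylation had 0.195 with it, 67 positive, and -0.04 without it, 16 positive. The 13 mitochondrially encoded mRNAs had 0.31 with it and 0.085 without it, and they also varied among vehicle libraries, from -0.28 to 0.28. These are short transcripts, with median lengths of 715, 832 and 784 bases for the 3 lists beside 2806 bases for all genes. With each library's trend on transcript length removed and all libraries kept, the 3 medians were 0.06, 0.04 and 0.15, with 67 of 78, 52 of 75 and 11 of 13 positive. In oleic acid + FAC against FAC the 3 medians were 0.44, 0.34 and 0.80, with 78 of 78, 70 of 75 and 12 of 13 positive. Without the third library of both oleic acid groups they were 0.23, 0.13 and 0.12 there, beside -0.01 over all genes.

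**Figure D5:**
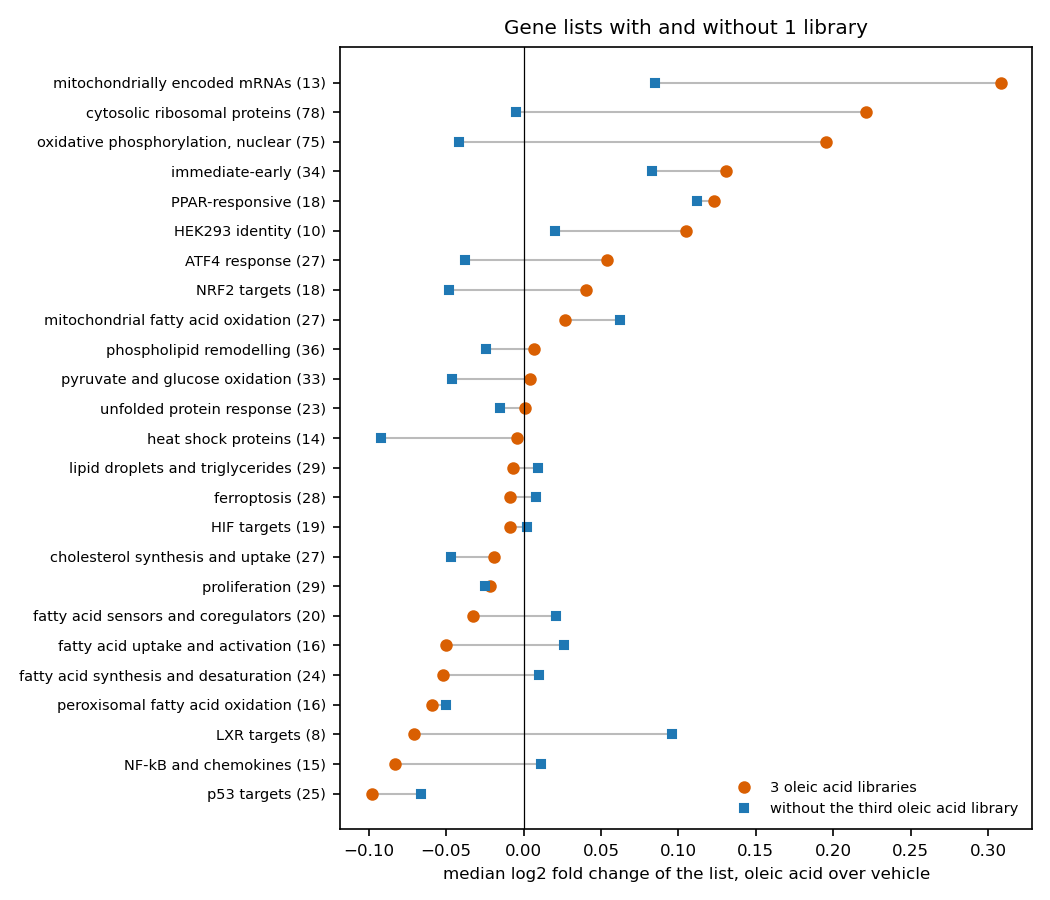
Median log2 fold change of oleic acid over vehicle (horizontal axis) for 25 gene lists with at least 8 members tested (number in brackets), with all 3 oleic acid libraries (orange circles) and without the third (blue squares). The medians of the ribosomal protein, nuclear oxidative phosphorylation and mitochondrial mRNA lists go from 0.22, 0.195 and 0.31 to -0.005, -0.04 and 0.085, while that of the PPAR-responsive list goes from 0.12 to 0.11.

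Stress and growth lists were summarised in the same way. The p53 targets had a median of -0.10 over 25 genes, 18 negative, and -0.07 without the third library. The ATF4 response went from 0.05 to -0.04, the NRF2 targets from 0.04 to -0.05, and the unfolded protein response from 0.001 to -0.015. The heat shock proteins went from -0.004 to -0.09, with 1 of 14 positive without that library. In that reading HSPA1A, HSPA1B, HSPD1 and DNAJA1 were lower without overlap, 4 of 14 where 5.87% of all genes were, and 0 of 14 were with all 3 oleic acid libraries. These 4 were named after their values were seen, so they are a description only. HSPA1A and HSPA1B are near-identical copies, so the split of their counts is uncertain. Proliferation genes had -0.02 in S phase and -0.02 in G2/M. With all 3 oleic acid libraries, no member of these 6 lists passed the test or had an unadjusted p under 0.05.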

How the data were processed

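The series holds 12 poly-A libraries of HEK293 cells, 3 for each of 4 conditions, and all 12 entered the fits. Per the submitters' processing notes, bcl2fastq 2.19, kallisto 0.46.1 and sleuth 0.30.0 were used with build GRCh38.p12 (hg38). The deposited tables hold kallisto's estimated counts per gene symbol and per transcript, as whole numbers, so rounding changed nothing. Gene positions and lengths came from GENCODE 29, in which 97.1% of symbols were found, and promoters from RefSeq on GRCh38.p14.

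Genes were kept by filterByExpr, scaled by TMM and tested in 1 quasi-likelihood fit in edgeR 4.0.16 (R 4.3.3) with a mean per group, by two-sided F tests and Benjamini-Hochberg adjustment over all genes kept. Intervals are 95% from the standard error. The steps were tested on simulated counts. Replicates were not copies of 1 library: chi-square over its degrees of freedom was 8.54 to 53.4 for pairs within the vehicle and oleic acid groups. The floors given cover counting error only.

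Genes are named if given with the comparison (CPT1A, PDK4, LPCAT1) or if in a fixed set. Others are the 10 in each direction of smallest p that do not overlap, at an average log2 CPM from 1 up, with and without the third oleic acid library, and up to 4 members of each of 31 lists. The members and lists were chosen with earlier results of these data known. Alternatives were other scalings, filters and tools (DESeq2 1.42.0, limma 3.58.1), a length correction, the replicate number as a block, and each library left out. The values of 1 listed gene are not reported here.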

Additional observations from a re-analysis of the deposited data

How the results depend on the processing

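In oleic acid against vehicle, 0 genes were called in all 18 alternatives, and in the difference of the 2 oleic acid effects 0 in every alternative run. In oleic acid + FAC against FAC, DESeq2 called 1 gene, PLIN2 (adjusted p = 0.000585 in DESeq2), and every other alternative called 0. The count of genes at an unadjusted p under 0.05 moved more, from 118 to 256 with no filter on low counts, 332 with quality weights in limma-voom and 71 with the 6 libraries fitted alone. Leaving out 1 library at a time gave 83 to 236 such genes, with 196 without vehicle replicate 1, 193 without oleic acid replicate 1 and 236 without oleic acid replicate 2. For transcripts, 0 were called in all 3 alternatives, and those at an unadjusted p under 0.05 went from 1088 to 2461 when all with at least 10 counts were kept. More or fewer features or samples entered these fits, except those with quality weights, for which the cause was not tested.

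The replicate number as a block (replicate block) gave 207 genes at an unadjusted p under 0.05, and 283 with the length trend also removed, with 0 called in both. Deviations of same-numbered vehicle and oleic acid libraries correlated at -0.048, 0.265 and -0.034, and 2 of the 6 libraries, those numbered 2, correlated best with their own number. The numbers were therefore not taken to pair these samples. Each deviation is from its own group's mean, on which the third oleic acid library weighs, so the correlations cannot show whether samples were paired. Deviations of FAC and oleic acid + FAC correlated at 0.226, 0.221 and 0.34. The third libraries of both groups correlated negatively with transcript length (-0.227 and -0.39), so these correlations cannot decide whether the samples were paired either. The folds, intervals and p-values given for oleic acid + FAC against FAC come from the fit without a block, unless a block is named. There the block called 0 genes and raised those at an unadjusted p under 0.05 from 576 to 1631.

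Of 140 named genes, 31 had the other sign without the third oleic acid library, 32 without the third library of both oleic acid groups, 14 with quality weights and 6 with the length trend removed. The signs of CPT1A, PDK4, LPCAT1, SLC25A20, PLIN2 and EGR1 held in all 18 alternatives, with log2 fold changes of 0.39 to 0.64 for CPT1A, 0.40 to 0.75 for PDK4, 0.39 to 0.66 for LPCAT1 and 0.68 to 1.00 for EGR1. No named gene that had an unadjusted p under 0.05 changed sign.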

Other observations

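Lists not described above also held no gene that passed the edgeR test. Fatty acid uptake and activation had a median log2 fold change of -0.05 over 16 genes, with 7 positive, and 0.03 without the third oleic acid library. Fatty acid sensors and their coregulators had -0.03 over 20 genes with it and 0.02 without it. The LXR targets, which include sterol exporters, had -0.07 over 8 genes, 4 of them positive, and 0.10 without it. HIF targets had -0.01 over 19 genes, and NF-kB and chemokine genes -0.08 over 15, against 0.002 and 0.01 without it. Genes of pyruvate and glucose oxidation had 0.004 over 33 genes, 17 positive, and -0.05 without it. TXNIP, a glucose-responsive member of that list, averaged 26.2 ± 5.85 CPM (SD, n = 3) over the vehicle libraries, and with oleic acid 20.6 ± 7.24 CPM (SD, n = 3).

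Without the third oleic acid library, some other genes had the smallest p. LNP1, known as a fusion partner of NUP98 in leukemia, was at 2.78, 2.49 and 2.15 CPM in vehicle and 3.80 and 3.97 CPM in the first and second oleic acid libraries, with 2.69 CPM in the third. JAM2, a junctional adhesion molecule, was at 9.27, 8.39 and 6.99 CPM in vehicle and 12.5, 10.8 and 8.07 CPM in oleic acid. Of the 10 genes chosen as higher in this way, 9 were positive in oleic acid + FAC against FAC, and 3, PDK4, LPCAT1 and RNF145, were higher there without overlap, where 4.61% of all genes were. They were chosen on these values, so no test is given.

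Of the 10 genes chosen as lower in this way, 3 were negative in the cells with FAC, or 5 without the third library of both oleic acid groups. There 0 of them were lower without overlap, where 5.92% of all genes were. ZNF302, a zinc finger gene, was at 171, 171 and 170 CPM in vehicle and 124, 131 and 203 CPM in oleic acid, so the third oleic acid library lay on the other side of vehicle. CREB3, a membrane-bound transcription factor, was at 25.2 to 28.1 CPM in vehicle and 21.7, 21.1 and 28.2 CPM in oleic acid.

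Depth limits what these libraries show for scarce genes. Among 12408 genes averaging a log2 CPM of 1 or more, the interval of the fold change lay within 2-fold for 95.4%. An absolute log2 fold change above 1 was seen in 148 genes, of which 16 reached that level.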
